A study of Mus musculus with 8 samples.

Results

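The IL-6 family cytokines and receptors were followed as 10 genes, the ligand genes Il6, Il11, Osm, Lif and Cntf and the receptor genes Il6ra, Cntfr, Osmr, Lifr and Il6st. They were found as all probes whose RefSeq accession maps to one of these symbols, which gave 17 of the 56605 probes, and 10 of the 22911 named genes on the arrays. Total RNA came from right fronto-parietal cortex of 16 mice, taken on the side of the lesion, in 4 groups of 4. The groups were cryolesioned mice deficient in microglia-derived Il6, cryolesioned floxed mice, control mice deficient in microglia-derived Il6, and control floxed mice. A cryolesion is a local wound caused by cold applied to the brain surface. Floxed mice carry recombination sites in a gene but keep it intact. The Cre driver, the deleted part of Il6, the age of the mice and the time after injury are not given in the sources used here. Cells other than microglia are not covered by the name of the deficiency, and the RNA is of whole cortex. Each array held 1 animal in Cy5 and 1 in Cy3, with 2 animals per dye in each group. Injured and control animals of one genotype never shared an array, and they were compared through the closed loop that the 8 arrays form. The loop has 4 sides of 2 arrays. Both injured groups met on the lesion side and both control groups on the control side. The other sides crossed genotype and injury: injured floxed mice met uninjured deficient mice on the floxed-lesion side, and injured deficient mice met uninjured floxed mice on the deficient-lesion side.

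Cytokines of this family signal through gp130, the shared receptor chain encoded by Il6st. A ligand first binds its own receptor chain, such as the IL-6 receptor (Il6ra) or the CNTF receptor (Cntfr), or a signalling partner of gp130 such as the oncostatin M receptor (Osmr) or the LIF receptor (Lifr). Janus kinases then activate STAT3. In injured brain, glial cells and infiltrating leukocytes are known sources of several of these ligands, and astrocytes are a known target.

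Levels are given as log2 channel intensity after loess and between-array normalization, and a fitted log2 ratio is the limma estimate from the ratios of all 8 arrays. The 2 scales can differ widely. In Il6-deficient animals Il11 had a ratio of 1.24, while its mean levels were 7.38 after cryolesion and 6.75 in controls. A ratio comes from differences within arrays, linked around the loop with a term for the dye. A level is 1 channel after normalization between arrays. The cause of the gaps was not tested. A change was called where its Benjamini-Hochberg adjusted p was under 0.05 over 29362 tested features. A probe entered this fit if it was well above background in at least 4 of 16 channels. That left 9 of the 10 genes, read on their brightest probe. Il6 did not enter. Lif entered mainly through the injured animals, being well above background in all 8 of them and in 1 of 8 controls. Counts over the 9 genes therefore describe the genes fitted and not the whole family. Levels of different genes are not compared with each other, since probes differ in brightness. In RNA of whole cortex, more cells of a type and more RNA per cell cannot be told apart.

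In each channel 61.0% to 67.4% of probes were well above background. All 8 neuron markers and all 8 astrocyte markers listed for the check of the tissue were well above background in every animal. Xist, the transcript of the inactive X chromosome, was well above background in 0 of 4 Il6-deficient and 0 of 4 floxed cryolesioned animals, against 1 of 4 Il6-deficient and 3 of 4 floxed controls. Cryolesion and sex were thus partly confounded, and so were genotype and sex in control cortex. Values with sex as a covariate are given where they change a call.

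Promoter windows are shown for Il6 and for 3 genes that rose after cryolesion and hold a match to the AP-1 letters TGANTCA. RefSeq sequences of build GRCm38.p6, from 250 bases before to 50 bases after a start, were matched for 9 of the 10 genes, in 16 windows; Osm was not among them. The letters were searched on both strands, for AP-1, for STAT (TTCNNNGAA) and for NF-kB (GGGA and TTCC, separated by 2 bases). AP-1 letters occurred in 5 of the 16 windows, 1 each of Il6, Il11, Lif, Cntf and Osmr, and in 7.81% of the 32851 promoter windows in the table. NF-kB letters occurred in 1 of the 16 windows, that of Il6, and in 1.47% of all windows. STAT letters occurred in 0 of the 16 windows of the family and in 8.3% of all windows. Capitals mark the matches in the 5′ to 3′ sequences below, given on the strand of the gene. They describe letters and not bound sites.
Il6, chr5:30012864-30013163, plus strand, AP-1 letters from base -249 and NF-kB letters from base -44: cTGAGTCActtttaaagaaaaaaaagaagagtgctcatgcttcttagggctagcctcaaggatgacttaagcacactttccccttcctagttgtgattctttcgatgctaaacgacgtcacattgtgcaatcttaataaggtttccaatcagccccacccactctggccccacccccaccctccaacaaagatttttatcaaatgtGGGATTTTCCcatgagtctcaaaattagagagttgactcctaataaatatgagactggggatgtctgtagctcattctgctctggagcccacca
Il11, second window, chr7:4778092-4778391, minus strand, AP-1 letters from base -98: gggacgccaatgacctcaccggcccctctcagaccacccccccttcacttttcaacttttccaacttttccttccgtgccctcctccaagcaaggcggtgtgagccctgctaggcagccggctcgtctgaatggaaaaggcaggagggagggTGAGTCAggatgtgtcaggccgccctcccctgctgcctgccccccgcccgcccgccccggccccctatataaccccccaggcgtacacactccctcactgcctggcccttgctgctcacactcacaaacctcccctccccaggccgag
Cntf, chr19:12765583-12765882, minus strand, AP-1 letters from base -245: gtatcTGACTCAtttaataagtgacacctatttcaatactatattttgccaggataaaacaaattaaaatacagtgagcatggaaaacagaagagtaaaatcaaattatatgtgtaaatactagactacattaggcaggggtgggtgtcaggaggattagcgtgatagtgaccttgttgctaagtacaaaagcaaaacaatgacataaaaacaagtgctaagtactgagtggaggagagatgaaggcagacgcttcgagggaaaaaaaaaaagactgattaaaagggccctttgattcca
Osmr, chr15:6874264-6874563, minus strand, AP-1 letters from base 4 after the start: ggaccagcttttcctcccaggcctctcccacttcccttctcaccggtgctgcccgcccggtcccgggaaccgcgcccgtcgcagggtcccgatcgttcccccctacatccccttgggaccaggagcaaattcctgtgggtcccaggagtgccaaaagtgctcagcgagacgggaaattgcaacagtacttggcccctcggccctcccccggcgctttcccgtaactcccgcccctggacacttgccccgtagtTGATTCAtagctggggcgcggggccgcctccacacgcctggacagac

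Across the family, cryolesion raised Osmr strongly in both genotypes. Cntf passed in floxed animals alone, although its ratios were near each other (0.62 ± 0.12 in floxed and 0.56 ± 0.12 in Il6-deficient animals). Its floxed call was lost in 11 of 19 other settings. Taken over both genotypes, Il11 and Osm also rose and Cntfr fell. For Il6 deficiency no fitted member passed the adjusted threshold in injured or in control cortex. In Il6-deficient animals 1 of 9 fitted members was higher after cryolesion and 0 were lower, where 2.73% of all features were called (1.67% higher and 1.07% lower). In floxed animals 2 of 9 were higher and 0 lower, where 3.05% of all features were called (1.86% higher and 1.19% lower). For the mean of both genotypes 4 of 9 were higher and 1 was lower, where 11.9% of all features were called (6.02% higher and 5.87% lower). At an unadjusted p under 0.05, 5 members passed in Il6-deficient animals, where 5568 of 29362 features did, and 6 in floxed animals, where 5756 did. The members' median ratio was 0.48 in Il6-deficient animals, 0.50 in floxed animals and 0.41 for the mean. The medians over all features were -0.01 in all 3 comparisons.

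**Figure D1:**
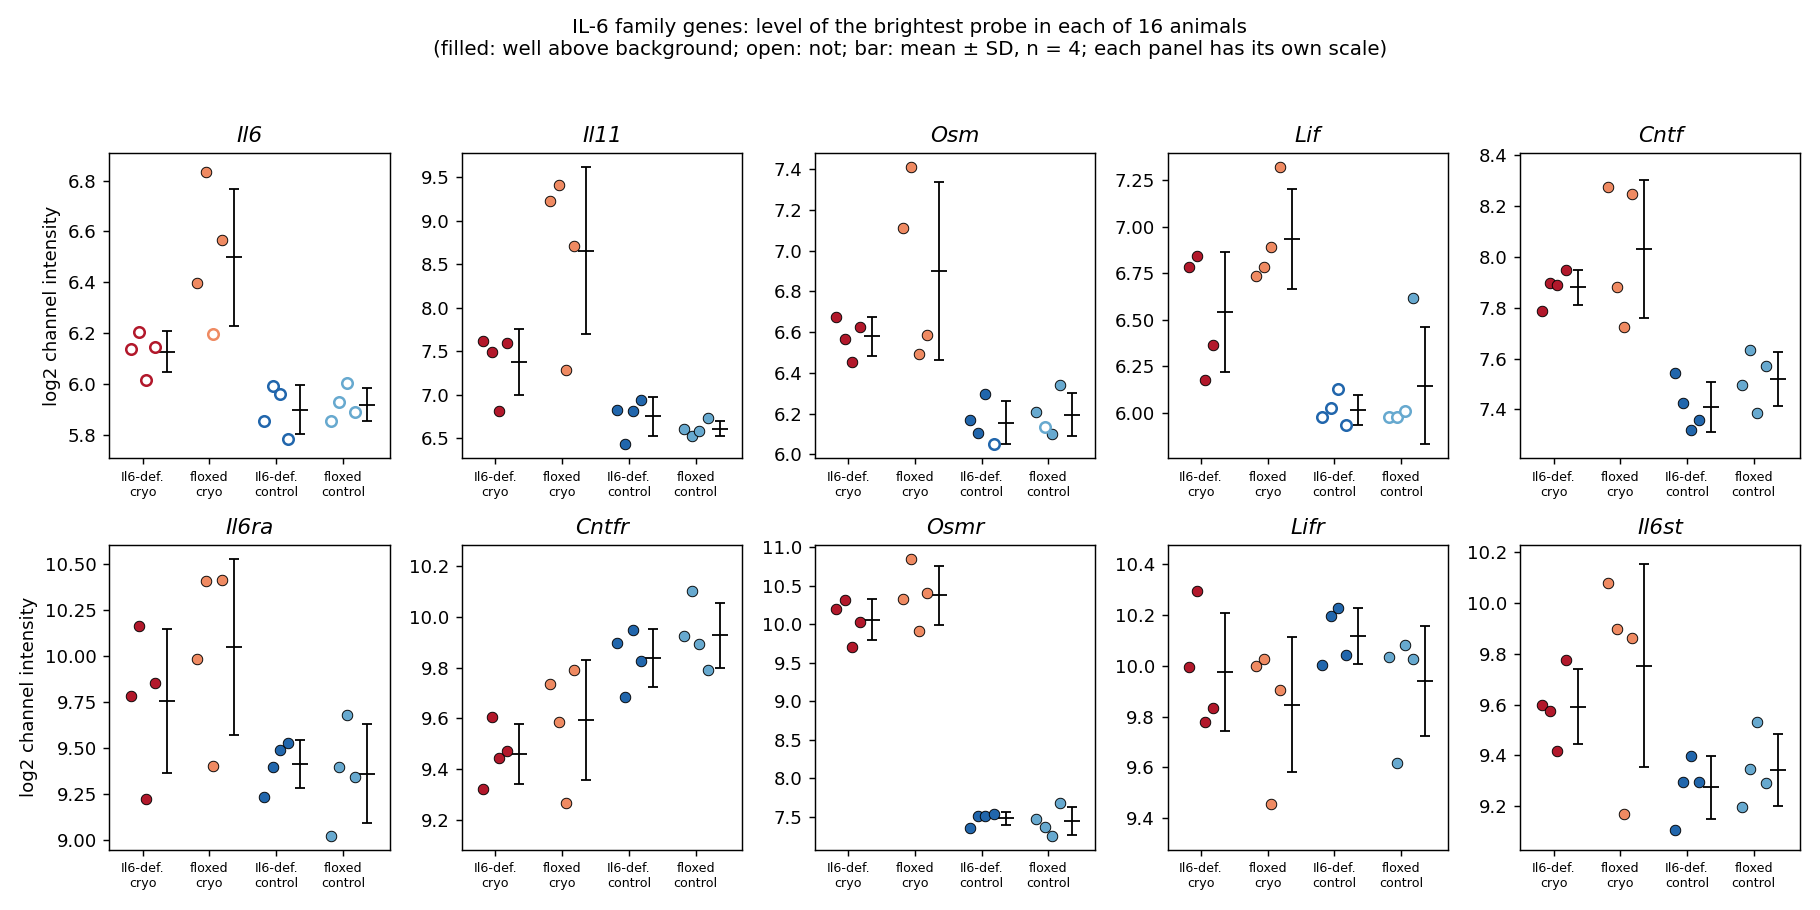
Level of the brightest probe of each of the 10 genes (log2 channel intensity, a separate scale per panel) in every animal, by group, with mean and SD (n = 4). Filled points are well above background and open points are not. In the Osmr panel the 8 cryolesioned animals lie between 9.70 and 10.85, all above the 8 controls.

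Among the ligands, Il6 itself was near the limit of detection. Its brighter probe read 6.14, 6.21, 6.01 and 6.15 in Il6-deficient cryolesioned animals 1 to 4, against 6.40, 6.83, 6.20 and 6.57 in floxed cryolesioned animals. In controls it read 5.86, 5.99, 5.96 and 5.78 with Il6 deficiency and 5.86, 5.93, 6.00 and 5.89 in floxed animals. Floxed cryolesioned animals 1, 2 and 4 were the 3 animals well above background and lay above all 13 others, and animal 3 lay inside the range of the Il6-deficient cryolesioned group. The second probe was well above background in 1 animal, floxed cryolesioned animal 2, at 6.37. Between the cryolesioned genotypes the exact two-sided permutation test over 70 splits gave p = 0.0571 for the brighter probe (n = 4 each) and p = 0.114 for the second one. The smallest p this design allows is 0.0286. The brighter probe reached 0.0286 for that comparison with loess alone and with median centring. For cryolesioned against control animals the exact p was 0.0286 with either probe in both genotypes, with no adjustment over features. With limma fitted to every probe and no filter, neither probe passed. The limma adjusted p for the brighter probe was 0.497 in Il6-deficient and 0.204 in floxed animals. For the second probe it was 0.423 and 0.495. No Il6-deficient animal was well above background with or without injury, so no fold between those groups is given, although their readings did not overlap. Median centring gave p = 0.171 for the brighter probe in Il6-deficient animals and p = 0.229 for the second probe in floxed animals by the same exact test. Loess alone gave p = 0.0571 for the second probe in Il6-deficient animals by that exact test. For the brighter probe the level bounds put the floxed cryolesioned mean at 1.44-fold the floxed control mean and 1.29-fold the Il6-deficient cryolesioned mean. That mean counts animal 3, which was not well above background, so neither value is a strict minimum. By the second probe only 1 floxed cryolesioned animal was well above background, so no bound is given from it.

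Il11 encodes interleukin-11, a ligand that acts through its own receptor chain and gp130. It was well above background in all 16 animals. Il6-deficient cryolesioned animals had levels of 7.62, 7.49, 6.82 and 7.59, against 6.82, 6.43, 6.82 and 6.95 in Il6-deficient controls. Floxed cryolesioned animals had 9.22, 9.42, 7.29 and 8.71, against 6.60, 6.53, 6.58 and 6.74 in floxed controls. Floxed cryolesioned animals 1, 2 and 4 were the 3 highest of all 16, and animal 3 lay inside the Il6-deficient cryolesioned range. The floxed groups did not overlap, whereas the Il6-deficient groups did, through cryolesioned animal 3. The fitted log2 ratio over both genotypes was 1.49 ± 0.26 (SE), a fold of 2.81, with an adjusted p of 0.0164 in limma. This call was lost when array 1 or 2 of the floxed-lesion side or array 2 of the deficient-lesion side was left out, with limma adjusted p-values of 0.0793, 0.0645 and 0.0609. Within genotypes it was 1.24 ± 0.37 in Il6-deficient animals (limma adjusted p = 0.142) and 1.75 ± 0.37 in floxed animals (limma adjusted p = 0.0595). Neither passed. Over the 19 other settings the Il6-deficient ratio ran from 0.65 to 1.80 and was not called in any, and without lesion-side array 1 it was 0.81. The floxed ratio ran from 1.39 to 2.52 and was called in 5 of them: normexp offset 16, the authors' value table, both separate-channel fits and the fit without lesion-side array 1. That array held Il6-deficient cryolesioned animal 1 and floxed cryolesioned animal 3, and without it the floxed ratio was 2.17 with a limma adjusted p of 0.00948.

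Osm encodes oncostatin M, made mainly by activated myeloid cells. Its levels were 6.67, 6.56, 6.45 and 6.63 in Il6-deficient cryolesioned animals, against 6.17, 6.11, 6.30 and 6.05 in Il6-deficient controls. They were 7.11, 7.41, 6.49 and 6.58 in floxed cryolesioned animals, against 6.21, 6.13, 6.10 and 6.34 in floxed controls. Every cryolesioned animal lay above every control of either genotype. Floxed cryolesioned animals 1 and 2 were the highest of the 16. Osm rose over both genotypes, with a ratio of 0.70 ± 0.14 and a limma adjusted p of 0.0250. It did not pass in Il6-deficient animals (0.76 ± 0.20, limma adjusted p = 0.109) or in floxed animals (0.65 ± 0.20, limma adjusted p = 0.144) taken alone. A second Osm probe was not well above background in any of the 16 animals, so the change rests on 1 probe. Il11, Lif, Cntf and Cntfr likewise rest on 1 probe each, the only one found for them. The call over both genotypes was lost when array 1 or 2 of the floxed-lesion side, array 2 of the lesion side or array 2 of the deficient-lesion side was left out, with limma adjusted p-values of 0.0994, 0.0786, 0.0577 and 0.0831. With processed signals the ratio over both genotypes was 1.92.

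Lif encodes leukemia inhibitory factor, which signals through Lifr and gp130. It read 6.78, 6.84, 6.18 and 6.36 in Il6-deficient cryolesioned animals, against 5.98, 6.03, 6.13 and 5.93 in Il6-deficient controls. In floxed cryolesioned animals it read 6.74, 6.79, 6.89 and 7.32, against 5.98, 5.98, 6.01 and 6.62 in floxed controls. Floxed control 4 was the 1 control well above background, and it lay above 2 of the Il6-deficient cryolesioned animals. With no Il6-deficient control well above background, the level bound for Il6-deficient animals was at least 1.41-fold. The fitted ratio was smaller, at 0.19 ± 0.17, a fold of 1.14 (limma adjusted p = 0.606). It ran from 0.01 to 0.33 with 1 array left out, so the level bound is not a minimum for the fit. The fitted ratio in floxed animals was 0.50 ± 0.17 (limma adjusted p = 0.164), and Lif passed in neither genotype nor in their mean (0.34 ± 0.12, limma adjusted p = 0.107). Without lesion-side array 1 the floxed ratio was 0.68 and its limma adjusted p 0.0421. With the scanner software's processed signals the floxed ratio was 1.83 (limma adjusted p = 0.237), over 1.5 times the reported one.

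Cntf encodes ciliary neurotrophic factor, which in the nervous system is made by astrocytes and Schwann cells. Il6-deficient cryolesioned animals had levels of 7.79, 7.90, 7.89 and 7.95, against 7.54, 7.43, 7.32 and 7.36 in Il6-deficient controls. Floxed cryolesioned animals had 8.27, 7.88, 7.73 and 8.25, against 7.49, 7.63, 7.38 and 7.57 in floxed controls. All 8 cryolesioned animals lay above all 8 controls, and the 2 highest were floxed cryolesioned animals 1 and 4. Cntf rose in floxed animals by a ratio of 0.62 ± 0.12, a fold of 1.54 (limma adjusted p = 0.0420). In Il6-deficient animals the ratio was 0.56 ± 0.12 (limma adjusted p = 0.0618) and did not pass, while over both genotypes it rose by 0.59 ± 0.08 (limma adjusted p = 0.00764). The call in floxed animals was lost in 11 of 19 other settings, among them sex as a covariate (limma adjusted p = 0.0706) and the omission of any array but control-side array 2. Over both genotypes it was lost without floxed-lesion-side array 1 alone (limma adjusted p = 0.0515). RefSeq also lists a read-through gene that overlaps Cntf, and the probe may read both.

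**Figure D2:**
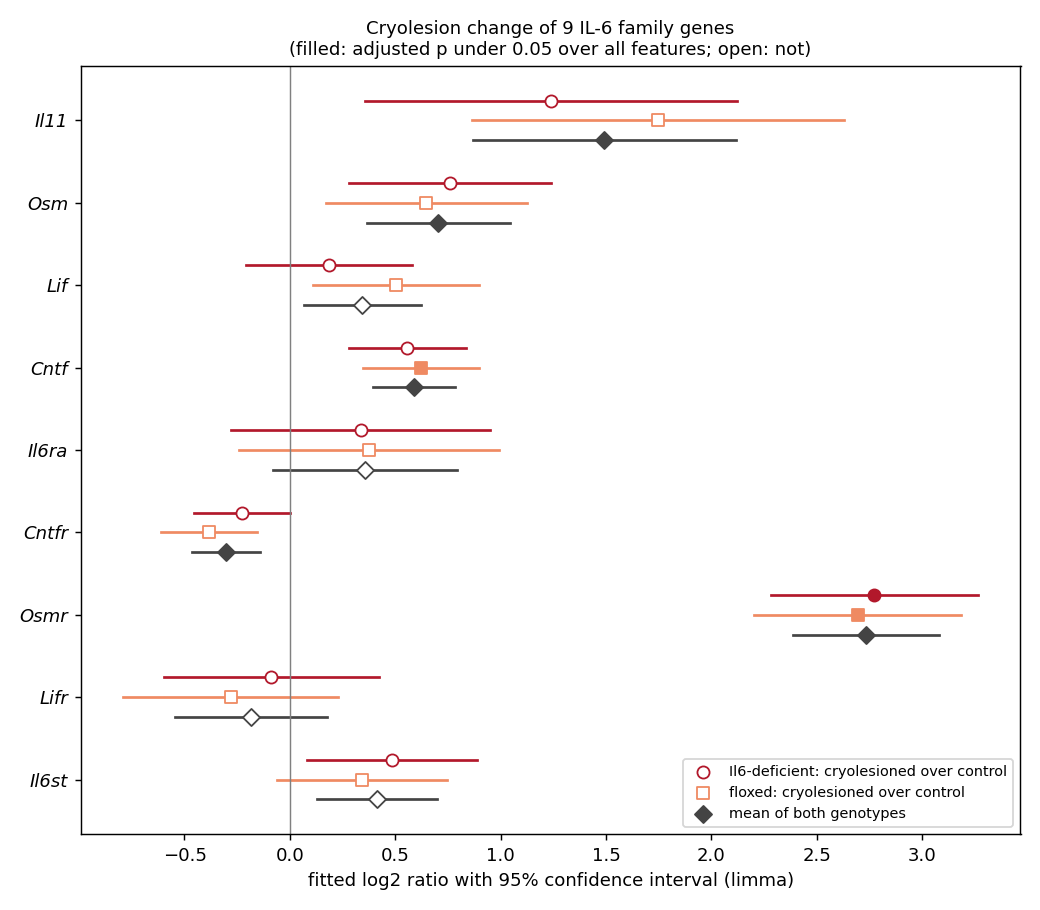
Fitted log2 ratio of cryolesioned over control animals with its 95% confidence interval for the 9 fitted genes, in Il6-deficient animals, in floxed animals and as the mean of both. Filled symbols passed the adjusted threshold over all features. Osmr lies apart at 2.77 and 2.69, and Cntfr is the 1 gene whose mean ratio passed below zero.

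Of the receptor genes, Osmr showed the largest change of the 9 fitted members. Its levels were 10.20, 10.32, 9.70 and 10.02 in Il6-deficient cryolesioned animals, against 7.36, 7.51, 7.51 and 7.53 in Il6-deficient controls. They were 10.33, 10.85, 9.92 and 10.41 in floxed cryolesioned animals, against 7.47, 7.37, 7.25 and 7.68 in floxed controls. The lowest of the 8 cryolesioned animals was at 9.70 and the highest of the 8 controls at 7.68, so the groups lay far apart. By group mean the order was floxed cryolesioned (10.38 ± 0.38, SD), Il6-deficient cryolesioned (10.06 ± 0.27), Il6-deficient control (7.48 ± 0.08) and floxed control (7.44 ± 0.18, n = 4 each). The neighbouring cryolesioned groups overlapped, and so did the control groups.

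The fitted Osmr ratio was 2.77 ± 0.21 in Il6-deficient animals, a fold of 6.84 (limma adjusted p = 0.00395), and 2.69 ± 0.21 in floxed animals, a fold of 6.47 (limma adjusted p = 0.00371). It passed in both genotypes in all 19 other settings. The ratio ranged there over 2.55 to 3.23 in Il6-deficient and 2.50 to 3.15 in floxed animals. With sex as a covariate it was 2.90 and 2.82. The second Osmr probe read 6.83, 7.22, 6.67 and 7.07 in Il6-deficient cryolesioned animals and 7.05, 7.40, 6.88 and 7.23 in floxed cryolesioned animals. It was not well above background in any control. By levels it gave bounds of at least 1.90-fold in Il6-deficient and at least 2.20-fold in floxed animals. Its fitted ratios were 1.11 ± 0.13 (limma adjusted p = 0.013) and 1.06 ± 0.13 (limma adjusted p = 0.014). That probe passed the filter only through cryolesioned animals. The Osmr response did not differ detectably between genotypes, with an interaction of 0.08 and a 95% interval of -0.61 to 0.77.

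Cntfr encodes the chain that binds ciliary neurotrophic factor and is anchored in the membrane by a lipid. It was the 1 fitted member that fell. Levels were 9.32, 9.61, 9.45 and 9.47 in Il6-deficient cryolesioned animals, against 9.90, 9.69, 9.95 and 9.82 in Il6-deficient controls. They were 9.73, 9.59, 9.27 and 9.79 in floxed cryolesioned animals, against 9.93, 10.10, 9.89 and 9.79 in floxed controls. The Il6-deficient groups did not overlap, whereas the floxed groups met at animal 4 of each. Over both genotypes the ratio was -0.30 ± 0.07 (limma adjusted p = 0.0339). It was -0.23 ± 0.10 in Il6-deficient animals (limma adjusted p = 0.267) and -0.38 ± 0.10 in floxed animals (limma adjusted p = 0.0900). The call over both genotypes was lost in 11 of 19 other settings, including the omission of any array but control-side array 2, although the ratio stayed below zero in all of them, from -0.42 to -0.25. Ligand and receptor of the CNTF pair thus moved in opposite directions by these fits.

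Il6ra, Lifr and Il6st did not pass in either genotype. Il6ra levels were 9.78, 10.16, 9.22 and 9.85 in Il6-deficient cryolesioned animals, against 9.24, 9.40, 9.49 and 9.53 in Il6-deficient controls. In floxed animals they were 9.98, 10.41, 9.40 and 10.41 after cryolesion, against 9.02, 9.40, 9.68 and 9.34 in controls. Il6-deficient cryolesioned animal 3 was just below its controls and floxed cryolesioned animal 3 was within the range of its own, whereas the other 6 cryolesioned animals lay above every control. Its ratio was 0.34 in Il6-deficient and 0.38 in floxed animals, each with an SE of 0.26. The 95% intervals were -0.28 to 0.95 and -0.24 to 0.99. Without array 2 of the floxed-lesion side the ratios were 0.05 in Il6-deficient and 0.09 in floxed animals, and without array 1 of the deficient-lesion side they were 0.59 and 0.63. A second, dimmer Il6ra probe gave 0.01 and 0.13.

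Il6st, the gene of gp130, had levels of 9.60, 9.57, 9.42 and 9.78 in Il6-deficient cryolesioned animals, against 9.11, 9.30, 9.40 and 9.30 in Il6-deficient controls. In floxed animals they were 10.08, 9.90, 9.17 and 9.86 after cryolesion, against 9.20, 9.35, 9.53 and 9.29 in controls. Floxed cryolesioned animal 3 was below every floxed control, and the other 7 cryolesioned animals were above the controls of their own genotype. Over both genotypes the ratio was 0.41 ± 0.12 (limma adjusted p = 0.0700), and it was 0.57 with sex as a covariate (limma adjusted p = 0.0364). A second Il6st probe gave 0.32 in Il6-deficient and 0.46 in floxed animals, with limma adjusted p-values of 0.340 and 0.179.

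Lifr levels averaged 9.98 ± 0.23 in Il6-deficient cryolesioned animals, against 10.12 ± 0.11 in Il6-deficient controls (SD, n = 4 each). They averaged 9.85 ± 0.27 in floxed cryolesioned animals, against 9.94 ± 0.22 in floxed controls, and the groups overlapped in each genotype. The brightest probe had ratios of -0.09 ± 0.22 in Il6-deficient and -0.28 ± 0.22 in floxed animals. The second probe gave 0.04 and 0.23, and the dimmest one 0.02 and 0.22. The probes therefore differed in sign, and none passed in limma.

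By levels, cryolesioned Il6-deficient animals lay above their controls without overlap in 5 of 9 fitted members, namely Osm, Lif, Cntf, Osmr and Il6st, and below them in 1, Cntfr. Of all features 17.3% lay apart in these groups, 8.41% higher and 8.85% lower. In floxed mice 5 of 9, namely Il11, Osm, Lif, Cntf and Osmr, lay above their controls without overlap and 0 lay below. Of all features 14.8% lay apart there, 7.33% higher and 7.49% lower. Single animals weighed on several genes. Floxed cryolesioned animal 3 had the lowest level of its group in 9 of the 10 genes, all but Lif, where 27.8% of all features had their lowest value in that animal. Il6-deficient cryolesioned animal 3 was lowest in 8 of the 10, where 31.1% of all features were lowest in it. In the 17 fitted genes of the STAT3 and IL-6 responsive list, those 2 animals also had the lowest mean level of their groups. The means were 9.88, 9.71, 9.33 and 9.49 in Il6-deficient cryolesioned animals and 10.17, 10.43, 9.80 and 10.28 in floxed cryolesioned animals.

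The genotype comparison asks whether loss of microglia-derived Il6 alters the rest of the family. No fitted member was called in injured or in control cortex, where 0% of all features were called in either state. At an unadjusted p under 0.05, 2 of 9 members and 2529 of 29362 features passed in injured cortex, and 0 members and 1299 features in control cortex. The separate-channel fit in limma called 0 members and 1 feature in each state. In injured cortex Il11 had a ratio of Il6-deficient over floxed of -0.82 ± 0.32 (limma adjusted p = 0.575, unadjusted 0.0385). Lif had -0.42 ± 0.14 (limma adjusted p = 0.566, unadjusted 0.0229). The ratio was below zero for 8 of 9 members, and the median over members was -0.12, against 0.01 over all features. In control cortex, too, it was below zero for 8 of 9 members, with a median of -0.18, against 0.01 over all features. Genotype and sex were partly confounded in control cortex, and with sex as a covariate no member was called there. Mean levels there did not all follow. They were higher in Il6-deficient than in floxed controls for Il11 (6.75 against 6.61), Il6ra (9.41 against 9.36) and Osmr (7.48 against 7.44). The ratios of these genes also changed sign in some other settings. Osm, Lif, Cntf, Cntfr and Il6st were lower by mean level too. By ratio, Lifr was the exception in both states. In injured cortex it had 0.25 ± 0.19, and its other 2 probes gave -0.13 each. In control cortex it had 0.06 ± 0.19, and its other 2 probes gave 0.06 and 0.07.

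Without lesion-side array 1 the injured-cortex ratio was -1.46 for Il11 (limma adjusted p = 0.350) and -0.68 for Lif (limma adjusted p = 0.411). The level groups overlapped for all 10 genes in both states, where 4.46% of all features lay apart in injured and 4.01% in control cortex. In control cortex the ratios ran from -0.32 for Il11 to 0.06 for Lifr. The interaction, which tests whether the cryolesion response differed between genotypes, ran from -0.51 for Il11 to 0.19 for Lifr. The interaction called 0 members and 0% of all features, and 0 members and 972 features passed at an unadjusted p under 0.05. The 95% interval of the Il11 interaction was -1.76 to 0.74, and these 8 arrays could not resolve a difference within it.

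**Figure D3:**
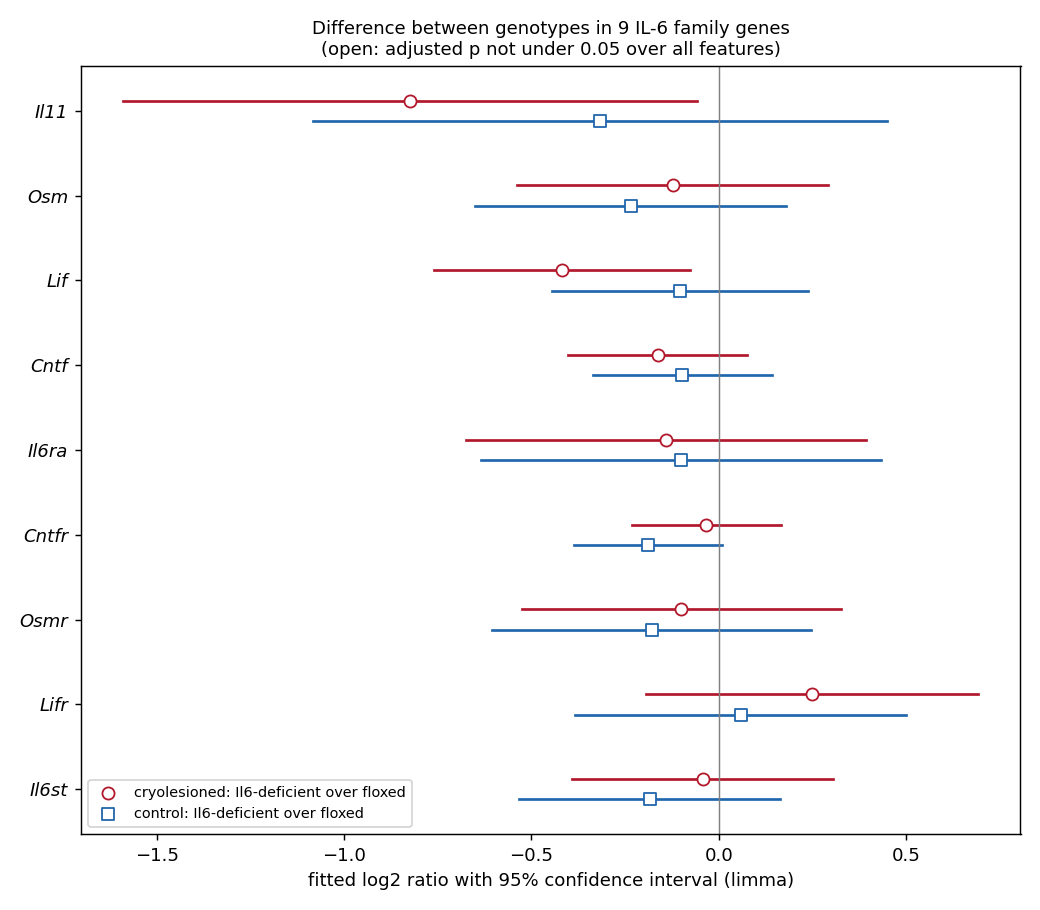
Fitted log2 ratio of Il6-deficient over floxed animals with its 95% confidence interval for the 9 fitted genes, in cryolesioned and in control cortex. None passed the adjusted threshold, and Il11 (-0.82) and Lif (-0.42) in cryolesioned cortex are the 2 whose intervals exclude zero.

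Further ligands and receptors of the family were read from a list of 10 genes, of which 7 were fitted. None passed in either genotype. At an unadjusted p under 0.05, Clcf1 passed in both genotypes and Il27ra in floxed animals. Clcf1 encodes cardiotrophin-like cytokine factor, a ligand of the CNTF receptor. It rose over both genotypes, by 0.67 ± 0.11 (limma adjusted p = 0.0117). Its level was 6.58 ± 0.18 in Il6-deficient cryolesioned animals, against 6.24 ± 0.09 in Il6-deficient controls. It was 7.06 ± 0.37 in floxed cryolesioned animals, against 6.13 ± 0.06 in floxed controls (SD, n = 4 each). No floxed control was well above background, and the level bound for floxed animals was at least 1.89-fold. The fitted floxed ratio was 0.71 ± 0.15 (limma adjusted p = 0.0587), a smaller change than that bound. Il11ra1, the receptor chain of interleukin-11, had ratios of 0.14 ± 0.30 in Il6-deficient and 0.54 ± 0.30 in floxed animals. Ctf1, Il27, Ebi3 and Il27ra did not pass, and Ctf2, Il31 and Il31ra were below the filter.

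The signalling chain downstream of gp130 was read from a list of 18 genes, all fitted. In Il6-deficient animals 4 were higher and 0 lower after cryolesion, where 1.67% of all features were higher and 1.07% lower. In floxed animals 4 were higher and 0 lower, where 1.86% of all features were higher and 1.19% lower. The list medians were 0.11 and 0.20. The higher genes were Socs3, Stat3, Ptpn6 and Socs1 in Il6-deficient animals and Socs3, Stat3, Ptpn6 and Cish in floxed animals. Socs3, the feedback inhibitor that binds gp130, rose by 2.00 ± 0.25 in Il6-deficient and 1.85 ± 0.25 in floxed animals, and the transcription factor gene Stat3 by 1.77 ± 0.20 and 1.38 ± 0.20. By levels the order of the genotypes turned for Socs3 and for several other genes, among them Stat3, Socs1, Osm and Osmr. The Socs3 level was 11.18 ± 0.60 in Il6-deficient cryolesioned animals, against 9.19 ± 1.01 in Il6-deficient controls. It was 11.84 ± 0.62 in floxed cryolesioned animals, against 8.65 ± 0.41 in floxed controls (SD, n = 4 each). Mean Stat3 levels were 11.96 against 10.43 with Il6 deficiency and 12.15 against 10.47 in floxed animals. For Socs1 they were 7.36 against 6.83 and 7.66 against 6.99. Ptpn6 kept its order by levels. Ptpn6, the phosphatase SHP1 that limits cytokine signalling in blood cells, rose by 0.94 ± 0.10 in Il6-deficient animals (limma adjusted p = 0.0112) and by 0.83 ± 0.10 in floxed animals (limma adjusted p = 0.0151). Socs1, a feedback inhibitor of Janus kinases, rose by 0.93 ± 0.17 in Il6-deficient animals (limma adjusted p = 0.0453) and had 0.76 ± 0.17 in floxed animals (limma adjusted p = 0.0694). Cish, another inhibitor of the same kind, had 0.21 ± 0.10 in Il6-deficient animals (limma adjusted p = 0.335) and rose by 0.62 ± 0.10 in floxed animals (limma adjusted p = 0.0306). Its interaction was -0.42 ± 0.15 and did not pass. The kinase Jak1 had -0.14 and 0.02, Jak2 0.08 and 0.14, and Tyk2 -0.03 and -0.22, with no call. Over both genotypes 7 of the 18 were higher, including Shc1 (0.53 ± 0.09), and 1 was lower. Of all features 6.02% were higher and 5.87% lower there. The 1 lower gene of the list was Ptpn11, the phosphatase SHP2 that binds gp130, at -0.30 ± 0.07 (limma adjusted p = 0.0448). For Il6 deficiency 0 of the 18 and 0% of all features passed in either state. At an unadjusted p under 0.05, 2 of the 18 passed in injured cortex, where 2529 of 29362 features did. In control cortex 1 passed, where 1299 features did.

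**Figure D4:**
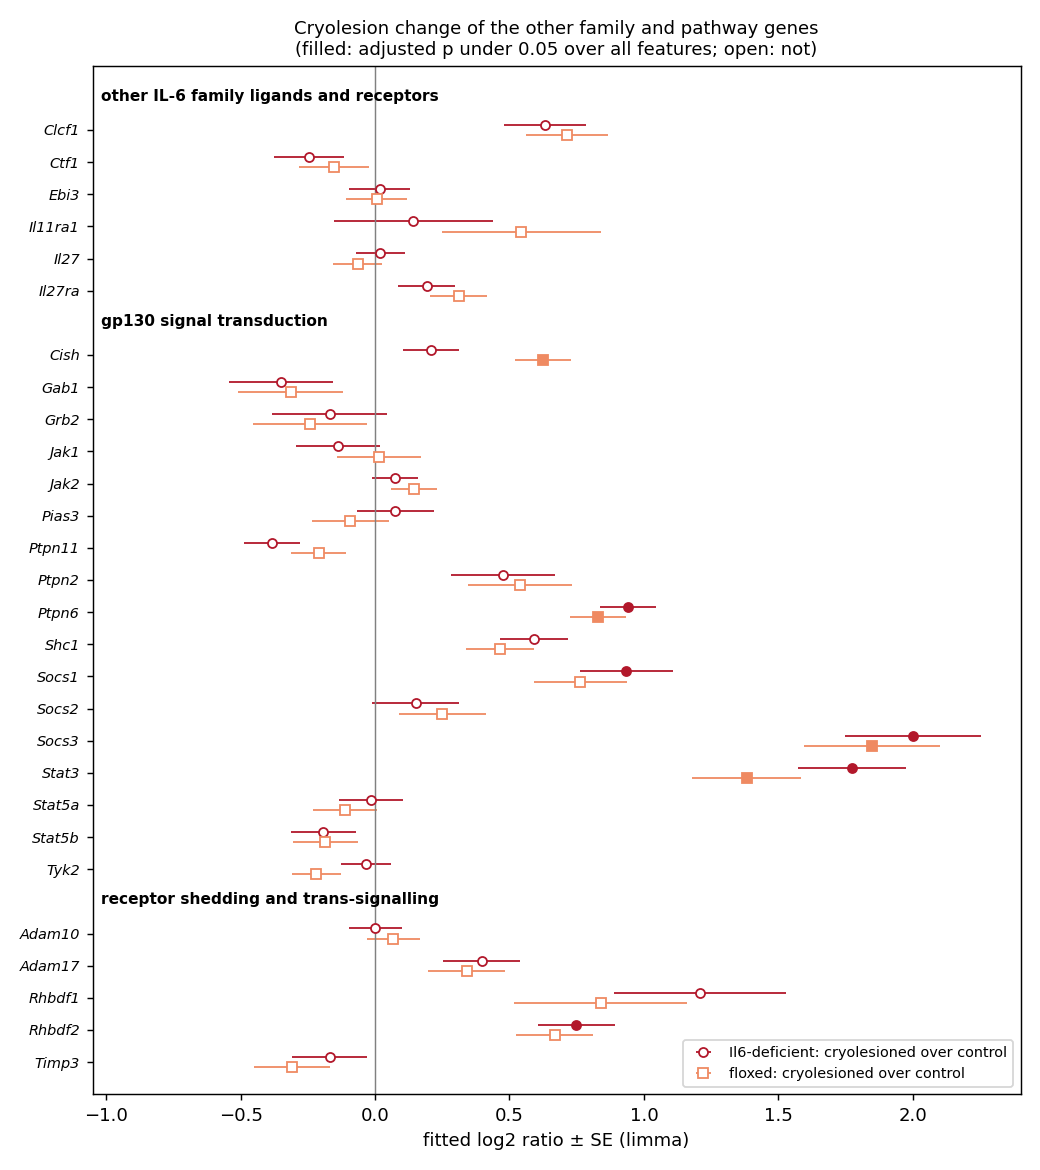
Fitted log2 ratio of cryolesioned over control animals with its SE for named genes of the other family list, the gp130 signalling genes and the genes of receptor shedding, in Il6-deficient and floxed animals. Filled symbols passed the adjusted threshold over all features. Socs3 and Stat3 lie farthest right in both genotypes, and the Janus kinases lie near zero.

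The IL-6 receptor can be shed from the cell surface by ADAM17, whose transport to the membrane needs the iRhom proteins encoded by Rhbdf1 and Rhbdf2. Of 5 genes listed for shedding, 1 was higher in Il6-deficient animals, where 1.67% of all features were higher. In floxed animals 0 passed, where 3.05% of all features were called. At an unadjusted p under 0.05, 3 of the 5 passed in each genotype, where 5568 and 5756 of all 29362 features did in Il6-deficient and floxed animals. Rhbdf2 rose by 0.75 ± 0.14 in Il6-deficient animals (limma adjusted p = 0.0483) and had 0.67 ± 0.14 in floxed animals (limma adjusted p = 0.0599). By mean level that order turned, with 7.09 against 6.61 in Il6-deficient and 7.46 against 6.65 in floxed animals. Over both genotypes Rhbdf2 rose by 0.71 ± 0.10 (limma adjusted p = 0.00835) and Rhbdf1 by 1.02 ± 0.23 (limma adjusted p = 0.0326). Adam17 had 0.40 ± 0.14 in Il6-deficient and 0.34 ± 0.14 in floxed animals and did not pass. Adam10 had 0.00 and 0.07.

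Genes that respond to IL-6 and STAT3 were read from a list of 18, of which 17 were fitted. Saa3, Il1rn, Steap4 and Icam1 entered the fit mainly through the injured animals, and the counts and medians below include them. Saa3 was well above background in 1 of 4 Il6-deficient and 2 of 4 floxed controls. Il1rn and Steap4 were so in no control, and Icam1 in 1 floxed control. After cryolesion 9 were higher in Il6-deficient animals and 10 in floxed animals, and 0 were lower in either. Of all features 1.67% and 1.86% were higher, and 1.07% and 1.19% lower. The medians of the list were 2.00 and 1.85. Bcl3, Cebpd, Gfap, Lcn2, Saa3, Serpina3n, Socs3, Timp1 and Vim rose in both genotypes, and Hp in floxed animals. Timp1, an inhibitor of matrix proteases, was the highest, at 4.36 ± 0.26 in Il6-deficient and 4.88 ± 0.26 in floxed animals. Hp, the acute-phase protein haptoglobin, rose in floxed animals by 1.47 ± 0.18 (limma adjusted p = 0.0132) and had 0.89 ± 0.18 in Il6-deficient animals (limma adjusted p = 0.0534). Saa3, another acute-phase gene, rose by 2.02 ± 0.24 in Il6-deficient animals (limma adjusted p = 0.0128) and by 3.08 ± 0.24 in floxed animals (limma adjusted p = 0.00371). In injured cortex the median of the list for Il6-deficient over floxed was -0.36, and 0 of 17 passed. At an unadjusted p under 0.05, 6 of 17 passed, where 2529 of 29362 features did. Saa3 had -0.85 ± 0.20 and Hp -0.53 ± 0.15 there, both with a limma adjusted p of 0.563.

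Several neutrophil, monocyte and macrophage markers moved with the cryolesion too. The mean level of 3 fitted lymphocyte markers ran from 6.75 to 6.83 in Il6-deficient and 6.82 to 6.94 in floxed cryolesioned animals. In controls it ran from 6.74 to 6.79 with Il6 deficiency and 6.70 to 6.91 in floxed animals. For the counts that follow, 1.67% of all features were higher in Il6-deficient animals and 1.86% in floxed animals. Over both genotypes 6.02% were higher and 5.87% lower. Of 10 neutrophil markers 6 were fitted, and S100a8 and S100a9 were higher in both genotypes, while the defining markers Ly6g, Ngp, Ltf and Retnlg were below the filter. The mean level of the 6 ran from 8.38 to 8.99 in Il6-deficient cryolesioned animals, against 7.83 to 8.03 in Il6-deficient controls. It ran from 8.60 to 9.32 in floxed cryolesioned animals, against 7.81 to 7.96 in floxed controls. All 10 monocyte and macrophage markers were fitted. Plac8 was higher in both genotypes and Lyz2 in floxed animals, and 6 of 10 were higher over both genotypes. Their mean level ran from 7.36 to 7.64 in Il6-deficient and 7.57 to 8.09 in floxed cryolesioned animals, against 6.79 to 6.90 in Il6-deficient and 6.84 to 7.02 in floxed controls. Of 10 microglia markers 0 passed in either genotype, and over both genotypes Cx3cr1 was higher and P2ry12, Tmem119 and Csf1r were lower. At an unadjusted p under 0.05, 4 passed in Il6-deficient and 5 in floxed animals, where 5568 and 5756 of all 29362 features did. The mean level of the 10 ran from 10.33 to 10.52 in Il6-deficient and 10.23 to 10.47 in floxed cryolesioned animals, against 10.32 to 10.51 in Il6-deficient and 10.58 to 10.87 in floxed controls. All 4 floxed controls lay above the other 12 animals. Cx3cr1, a microglial chemokine receptor, had a ratio of Il6-deficient over floxed of -0.85 ± 0.10 in injured cortex (limma adjusted p = 0.563, unadjusted 5.27e-05). In control cortex it had -1.003 ± 0.10 (limma adjusted p = 0.534, unadjusted 1.85e-05). Of 8 astrocyte markers Sox9 rose in Il6-deficient animals and 0 passed in floxed animals. At an unadjusted p under 0.05, 5 of the 8 passed in Il6-deficient and 6 in floxed animals, beside the same counts over all features. Over both genotypes Sox9 and Aqp4 were higher and Gja1 and Gjb6 lower, and the mean level of the 8 ran from 11.44 to 11.77 in Il6-deficient and 11.47 to 11.74 in floxed cryolesioned animals, against 11.46 to 11.57 in Il6-deficient and 11.50 to 11.85 in floxed controls. The part of these cells in the changes of Osm, Il11, Osmr and Ptpn6 was not tested.

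Genes whose levels over the 16 animals were most like those of a member were named by Pearson's r, as a description. The animals fall into injured and control sets and share arrays in pairs, so r largely measures the gap between the sets. For Osmr the 3 nearest were Tgm1 (0.993), Ptx3 (0.991) and Ccl7 (0.990). For Il11 they were Atf3 (0.981), Tes (0.981) and Ccl9 (0.981). For Osm they were Procr (0.972), Itprip (0.968) and Akap12 (0.968), and for Il6 Gipr (0.960), Rassf1 (0.960) and Elk3 (0.958). Cntf lay nearest to Espl1 (0.960), Myo1f (0.949) and Galnt6 (0.944). Cntfr lay nearest to Proser2 (0.880), Dhrs3 (0.857) and Ninl (0.855).

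**Figure D5:**
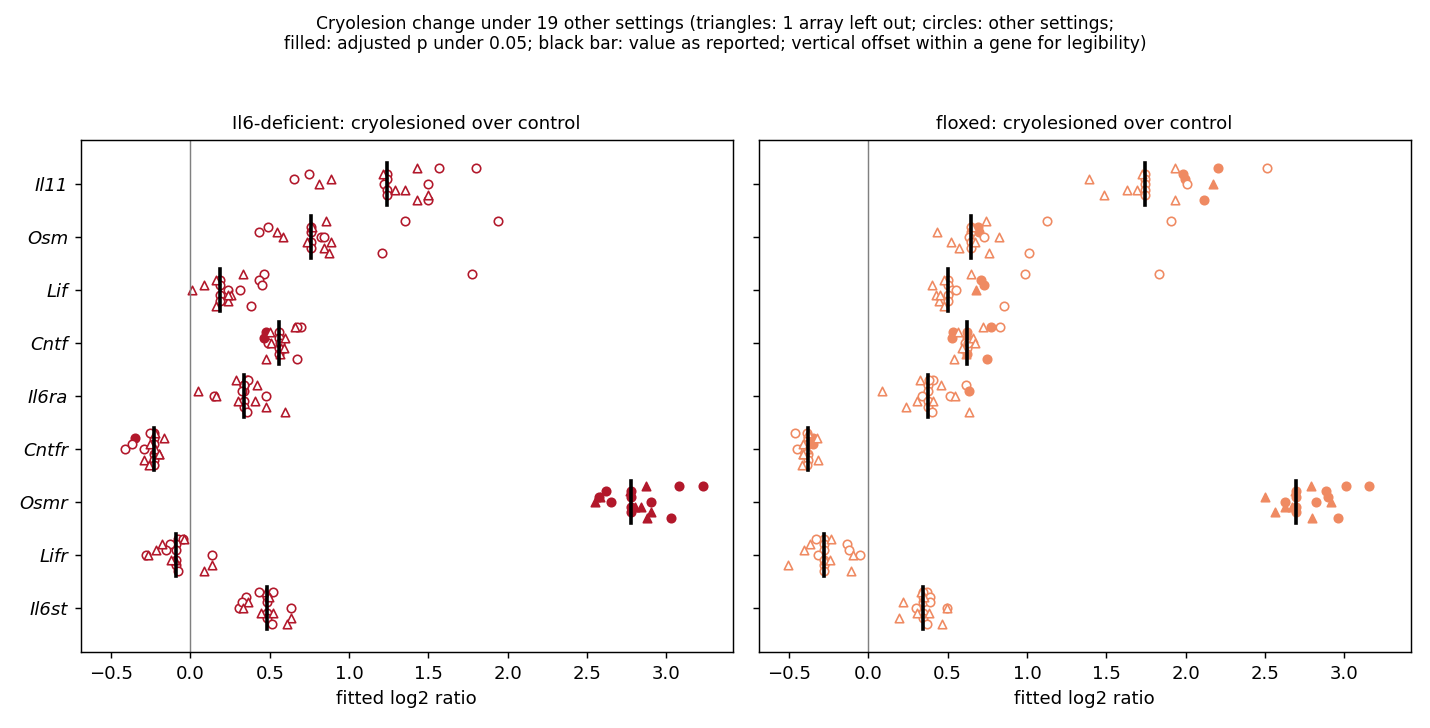
Fitted log2 ratio of cryolesioned over control animals for the 9 fitted genes under 19 other settings, in Il6-deficient (left) and floxed animals (right). Triangles leave out 1 array, circles change another setting, filled symbols passed the adjusted threshold and black bars are the reported values. Osmr is filled in every setting, and Lif and Osm spread to 1.78 and 1.94 in Il6-deficient animals with processed signals.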

How the data were processed

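Scans were read out by Agilent Feature Extraction (version 10.7.3.1), per the submitters' processing notes. The authors deposited unnormalized median intensity values per channel, for every spot and for the background around it. Processed intensities and a log10 ratio of red over green, both from the scanner software, were deposited beside them. The log10 ratio was used here to find the direction of the authors' table. That deposited table holds log2 ratios, 1 per array, with background correction and scaling not given in the sources used here. Its columns ran as red over green, with medians of -0.0045 to 0.0050, correlations of 0.966 to 0.977 with the loess ratios and slopes of 1.11 to 1.25 on them.

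Median signals were corrected by normexp (offset 50) and loess-normalized within arrays. Mean signals, which the plan allowed, were not used here. The limma model (version 3.58.1, R 4.3.3, lmFit with eBayes) had a dye intercept and 3 coefficients for the groups, with residual df of 4 and prior df of 2.95. The script was tested on simulated data. The filter counted channels whatever their group. RefSeq accessions, matched to a gene table of assembly GRCm38.p6, named 32994 of 56605 probes. Levels used Aquantile between arrays. Each "at least" fold divides the bright group's mean by a mean for the dim group in which every animal counts at its signal or at the faintest well-above-background probe of its channel, whichever is more. These bounds rest on levels, and a fitted fold can lie below them. They can carry dye bias, although each group held 2 animals per dye.

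The labels number 4 biological replicates per group. The limma p-values rest on the spread of the 8 array ratios around the fit. That spread is shared by the 4 groups and moderated over all features, and each ratio holds 2 animals. Exact permutation p-values rest on the levels of the animals in the 2 groups compared. All arrays share 1 slide and 1 scan, so neither could be tested as a batch, and the number of arrays limits the precision. Deviations of same-numbered animals on different arrays correlated by 0.10 on average (from -0.24 to 0.53), so the numbers were not taken as pairs. Members and gene lists were chosen with earlier results of these data known. The text names all 10 members, listed genes that passed for cryolesion or genotype with those needed to say what did not, and the 3 genes nearest in level to Il6 and to each member that passed. The counts of 2 lists include a gene that is not reported here by name. Alternatives changed background correction, normalization, filter, probe choice, the fit and the arrays used, 1 at a time except that the replicate block was added to the separate-channel fit.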

Additional observations from a re-analysis of the deposited data

Results flagged for a closer look

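Among 40 sets of 4 animals (10 genes in 4 groups), 4 held an animal farther from the rest than a 95% critical gap ratio allows. Chance alone marks about 1 set in 20, which is 2 of 40. Il11 in Il6-deficient cryolesioned animal 3 was 6.82, where the other 3 animals had 7.49 to 7.62. Lif in floxed control 4 was 6.62, where the other 3 had 5.98 to 6.01. Osmr in Il6-deficient control 1 was 7.36, where the other 3 had 7.51 to 7.53. Lifr in floxed control 2 was 9.62, where the other 3 had 10.03 to 10.08.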

How the results depend on the processing

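Each fitted result was recomputed under 19 other settings, 8 of which left out 1 array. Osmr kept its direction and its call for cryolesion in both genotypes in all of them, and no member was called for genotype or interaction in any. The number of members called in floxed animals (2 as reported) was 1 with median centring, with processed signals, without the dye intercept and with sex as a covariate. It was 3, with Il11 added, with normexp offset 16 and with the authors' value table. It was 6 with the separate-channel fit and 7 with that fit and the replicate block, and ran from 1 to 3 with 1 array left out. In Il6-deficient animals (1 as reported) it was 3 with the separate-channel fit, 2 with the replicate block and 1 with any array left out. For both genotypes together (5 as reported) it was 8 with either separate-channel fit and ran from 1 to 6 with 1 array left out, where single arrays mattered: leaving out array 1 or 2 of the floxed-lesion side gave 1 or 2, array 2 of the lesion side 3, and array 2 of the deficient-lesion side 2. The replicate numbers were not taken as pairs: on different arrays, deviations of same-numbered animals correlated by 0.10 on average and those of other animals by -0.035, and 7 of 16 animals correlated best with one of their own number.

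Ratios that changed sign were all uncalled. For Il6 deficiency in control cortex these were Il6ra at 0.0380 (median centring), 0.0195 (separate-channel fit) and 0.0354 (replicate block), Il11 at 0.0471 (separate-channel fit) and 0.105 (replicate block), Osmr at 0.0208 (replicate block) and the second Osm probe at -0.0233 (median centring). With sex as a covariate Il6st was at 0.0327 for Il6 deficiency in injured cortex, and Lifr at 0.137 for cryolesion in Il6-deficient animals and at 0.0412 for both genotypes. The Lifr interaction was -0.0300 with the replicate block. With 1 array left out, the ratio for Il6 deficiency in control cortex ran from -0.31 to 0.0435 for Il6ra and from -0.280 to 0.15 for Lifr. In injured cortex it ran from -0.0653 to 0.00814 for Cntfr, from -0.40 to 0.00447 for Il6ra, from -0.27 to 0.0327 for Il6st and from -0.0220 to 0.36 for Lifr. Cryolesion in Il6-deficient animals ran from -0.27 to 0.137 for Lifr, and the interaction from -1.36 to 0.0165 for Il11 and from -0.170 to 0.64 for Lifr. The cause was not tested.

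In this loop the fit with sex as a covariate gives, by construction, the values of the fit without control-side array 2 for cryolesion in Il6-deficient animals and for genotype in injured cortex. Signal over background limits Il6, Lif and the second probes of Osm and Osmr, which were not well above background in most or all controls. The same holds for Saa3, Il1rn, Steap4 and Icam1 of the STAT3 and IL-6 responsive list.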
